A study of Mus musculus with 18 samples.

Results

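The main cluster of replication-dependent histone genes of the mouse (Hist1) lies on chromosome 13, and H3K4me3 was described over it by peaks that overlapped 21700000 to 23900000 of that chromosome in build mm9. The window was set by position and not by any measured value, though earlier results of these data were known when it was chosen. It held 62 of 21905 peaks of control pancreatic islets and 74 of 21434 peaks of Men1 knockout islets. Control islets came from mice labelled RIP-Cre, a transgene in which the rat insulin promoter drives Cre recombinase in insulin-producing cells, and knockout islets from mice labelled as an islet-specific knockout of Men1. Both groups were 2 months old and had 1 H3K4me3 ChIP-seq library each, and all mice were of mixed background, from the strains C57BL/6, FVB/N and 129s6. The other 16 of the 18 samples of the series (input and H3K27me3 libraries and later ages) were not analysed here. The sources used here do not say whether the controls carry floxed Men1 alleles or how many animals gave each library. Islets hold several endocrine and non-endocrine cell types, so a mark in more cells and more mark per cell cannot be told apart.

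Replication-dependent histone genes make the bulk of histone protein during S phase. Their mRNAs have no introns and end in a stem-loop bound by Slbp instead of a poly(A) tail, and Npat drives their transcription in the nuclear bodies that form at these loci. H3K4me3 marks active and poised promoters, and menin, the protein that Men1 encodes, is a subunit of the MLL1 and MLL2 complexes that place it.

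The RefSeq gene table (GRCm38.p6) listed 56 genes with histone symbols on chromosome 13, of which 54 were protein coding and 2 were pseudogenes. The coding genes were 6 for linker histone H1, 13 for H2A, 15 for H2B, 9 for H3 and 11 for H4 (H4bc24 was counted as H2B from its older symbol Hist1h2br). In table order, pseudogenes included, the histone genes formed a block of 19 from H2bc13 to H4bc24, a block of 5 from H2ac12 to H2bc11 and a block of 30 from H4c8 to H1f1. The testis H2B and H2A genes H2bc1 and H2ac1 followed after 8 other genes. Between the first blocks lay 39 other genes, 31 of them tRNA genes. Between H2bc11 and H4c8 lay 147, of which 75 were Vmn1r genes, which encode vomeronasal pheromone receptors, and 46 were tRNA genes. Neighbouring H2A and H2B genes stood head to head, with no other listed gene between them, in 10 cases. The distance between them was not measured. Genes with no listed promoter had no strand here and could not be counted, so 10 is a minimum. The positions of this table belong to another build and were not set against the mm9 peaks, so no peak is assigned to a gene, and the name of the window rests on its position and was not checked against an mm9 annotation.

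Promoters of 51 of the 56 genes were found in the RefSeq promoter table (52 promoters of 300 bases, 250 before and 50 after the start). A few are shown to give the kind of promoter found in the cluster. No peak is placed on them, and H3K4me3 lies on nucleosomes around a start and not on these bases alone. The first coding gene of each family in table order is given by the 150 bases that precede its start, with 4 promoter motifs in capitals on either strand and overlapping matches kept: TATAAA (the TATA box), CCAAT (the site of NF-Y), ATTTGCAT (the octamer known from H2B promoters) and AAACACA (an element of H1 promoters). The GRCm38.p6 positions are chr13:21780626-21780775 on the minus strand for H1f5, chr13:21716262-21716411 on the plus strand for H2ac13, chr13:21716184-21716333 on the minus strand for H2bc13, chr13:21717478-21717627 on the plus strand for H3c10 and chr13:21734884-21735033 on the plus strand for H4c11.
H1f5: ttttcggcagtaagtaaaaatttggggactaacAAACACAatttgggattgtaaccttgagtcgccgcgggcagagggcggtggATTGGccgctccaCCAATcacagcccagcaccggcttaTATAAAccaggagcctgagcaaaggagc
H2ac13: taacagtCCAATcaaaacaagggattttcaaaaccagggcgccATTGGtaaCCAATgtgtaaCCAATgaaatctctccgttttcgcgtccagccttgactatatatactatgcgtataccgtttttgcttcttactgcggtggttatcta
H2bc13: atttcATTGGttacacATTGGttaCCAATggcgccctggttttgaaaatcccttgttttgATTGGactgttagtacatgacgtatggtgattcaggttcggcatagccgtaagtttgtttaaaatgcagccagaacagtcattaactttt
H3c10: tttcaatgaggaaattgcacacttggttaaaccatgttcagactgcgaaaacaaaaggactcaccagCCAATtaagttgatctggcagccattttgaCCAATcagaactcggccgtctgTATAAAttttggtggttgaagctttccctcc
H4c11: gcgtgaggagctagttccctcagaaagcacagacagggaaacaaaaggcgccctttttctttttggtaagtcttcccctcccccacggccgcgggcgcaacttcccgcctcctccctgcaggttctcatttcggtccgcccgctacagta
H2ac13 and H2bc13 are a head-to-head pair, and the stretches printed for them overlap and carry the same 4 CCAAT matches, read from opposite strands. Over the 300 bases, TATAAA was found in 31 of 52 histone promoters (59.6%) against 13.6% of the 32851 listed mouse promoters, and CCAAT in 44 of 52 (84.6%) against 37.4%. All 41 listed H1, H2A, H2B and H3 promoters held CCAAT, and 3 of 11 H4 promoters did. ATTTGCAT was found in 6 of 15 H2B and 5 of 13 H2A promoters, against 1.74% of all. AAACACA was found in 5 of 6 H1 promoters, against 7.18% of all. Counts are per promoter, so a match in bases that a head-to-head pair shares is counted for both genes. These matches describe the sequences and not sites of binding.

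The histone window was densely marked in both genotypes. Control islets had 28.2 peaks per Mb there against 7.56 per Mb between the first and last peak of the rest of chromosome 13, and knockout islets had 33.6 against 7.48 per Mb. The length called as peaks was 5.61% of the window in control and 5.73% in knockout islets, against 1.45% and 1.29% elsewhere on the chromosome. Among 1113 tiles of the window's length over the genome with at least 1 control peak, the window ranked 36th by control peak number (median over tiles 15 peaks) and joint 17th by knockout peak number (also a median of 15). The ranks are a description, and no test of the window against chance was made.

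Peaks stood in runs with a long unmarked stretch between them. With neighbours up to 100 kb apart counted as 1 run, the peaks of both lists formed a left run of 343 kb (21801414 to 22144000) with 25 control and 30 knockout peaks, and a right run of 494 kb (23361867 to 23856303) with 36 control and 44 knockout peaks. Each run held about the same density, 73.0 and 72.8 control peaks per Mb and 87.6 and 89.0 knockout peaks per Mb. A lone control peak, 841 bp wide and scored 71.7, stood between the runs, at 22259855 to 22260695. From it, 1117 kb without a control peak followed up to a peak at 23377418 to 23378613. In the knockout list no peak was called for 1218 kb, from the end of a peak at 22141419 to 22144000 to a knockout-only peak at 23361867 to 23362413. The window's borders cut through no peak. The last peaks outside lay 76.3 kb (control) and 76.4 kb (knockout) to its left, at a width of 1802 and 1887 bp, and the first inside lay 102 and 101 kb from that border, at 2044 and 2167 bp. On the right the last peaks inside lay 43.8 and 43.7 kb from the border, at 1232 and 4069 bp, and the first outside 179.8 and 179.6 kb beyond it, at 3940 and 3994 bp.

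**Figure D1:**
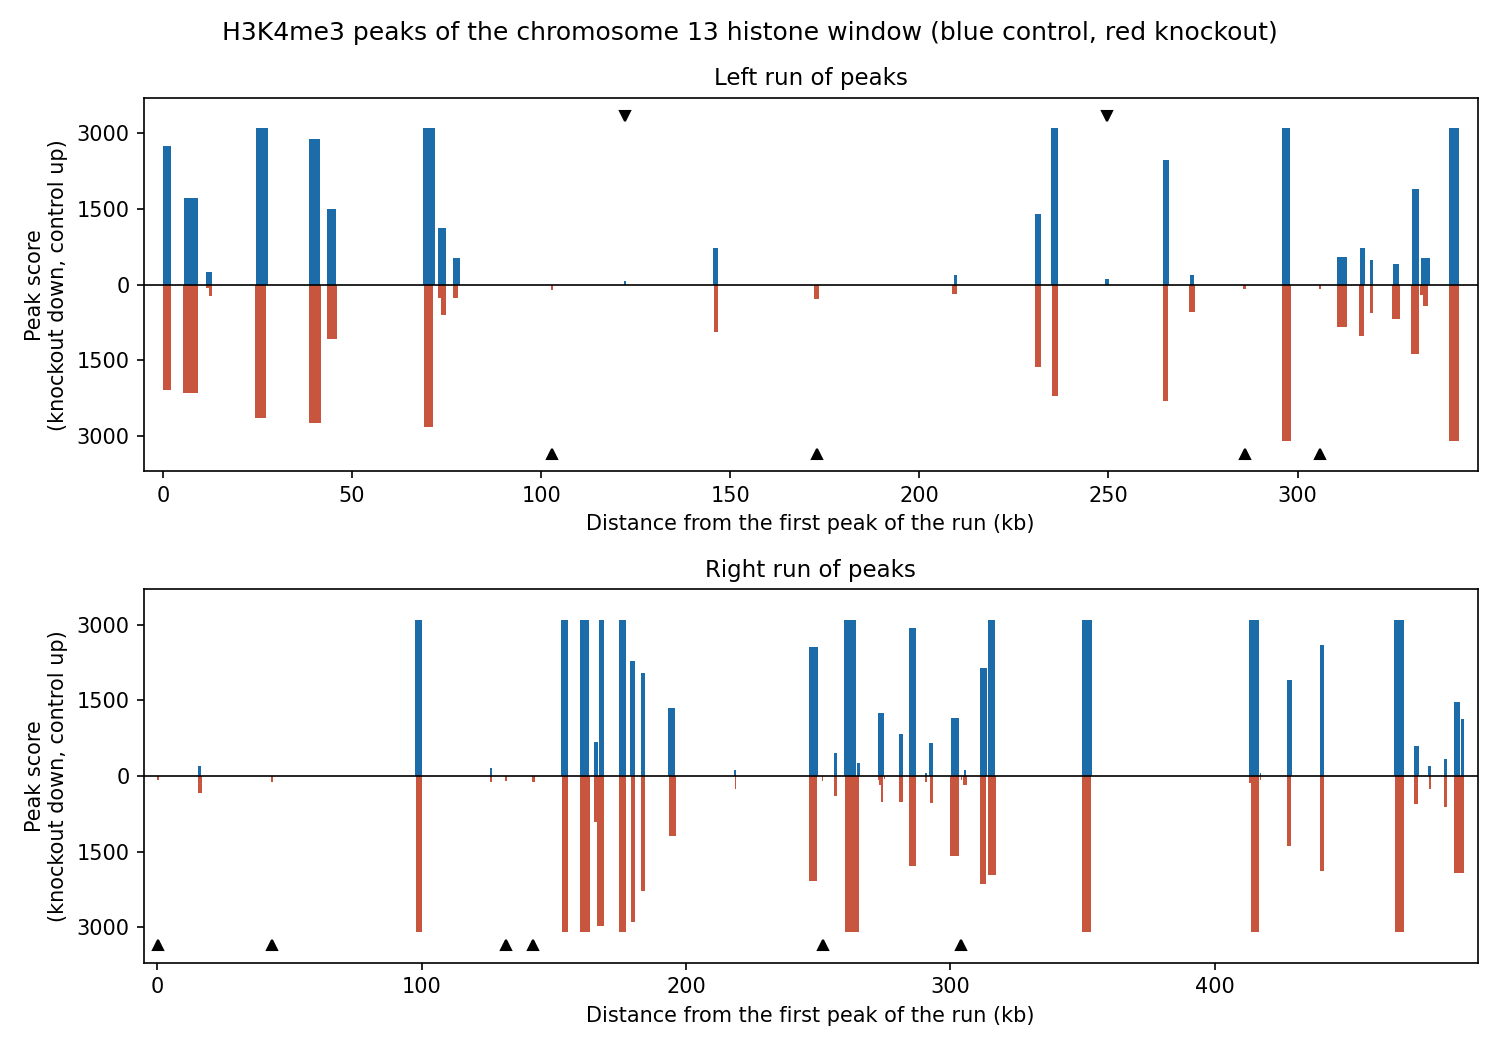
H3K4me3 peaks of the left run (upper panel) and right run (lower panel), drawn to scale by distance in kb from the first peak of each run; bar width is peak width, and bar height is the authors' score, upward for control (blue) and downward for knockout (red). Black triangles mark peaks called in 1 list only: all 12 in the runs have short bars, with scores from 71.4 to 276.

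Within the window, neighbouring peaks were close together. The median gap between facing borders was 5.32 kb in control islets (95% interval 3343 to 9642 bp, 61 gaps) and 4.80 kb in knockout islets (3049 to 7004 bp, 73 gaps). On the rest of chromosome 13 it was 52.2 kb in control and 56.0 kb in knockout islets. Gaps of up to 5 kb made up 27 of 61 in control (44.3%) and 39 of 73 in knockout islets (53.4%), against 9.60% and 10.9% elsewhere on the chromosome. The gap was 1 kb or less in 8 control and 12 knockout cases. The shortest were 76 bp in the control list and 4 bp in the knockout list, both inside 1 region at 23527063 to 23530894 that each list covered with 2 peaks. Whether peaks this close count as 1 or 2 can depend on the caller's rule for joining peaks. The sources used here give no setting for that rule, and its part was not tested.

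**Figure D2:**
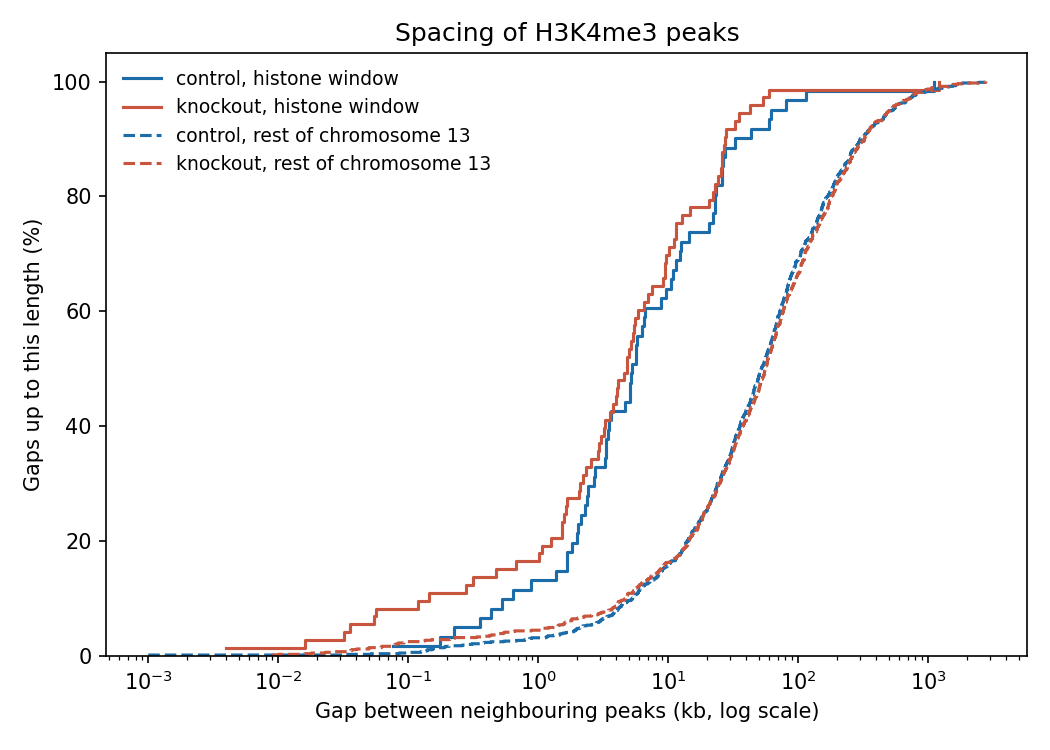
Cumulative share of gaps between neighbouring peaks (vertical axis, %) up to a given length in kb (horizontal axis, log scale), for control (blue) and knockout (red) in the histone window (solid) and on the rest of chromosome 13 (dashed). The window's curves lie to the left, with medians of 5.32 and 4.80 kb against 52.2 and 56.0 kb.

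Against the rest of the chromosome, the median peak width of the histone window was larger in the control and smaller in the knockout list. Both intervals included the chromosome's median. These medians are over all peaks of a list, split and one-list peaks included, and not over pairs. Fewer peaks of the window were at the tied top score. Control widths ranged from 549 to 4459 bp with a median of 1852 bp (95% interval 1553 to 2375), against a median of 1656 bp on the rest of chromosome 13. Knockout widths ranged from 343 to 5475 bp with a median of 1415 bp (1203 to 1718), against 1527 bp. A width above 4000 bp was found for 1 control peak (1.61%, interval 0.04 to 8.66) and 2 knockout peaks (2.70%, 0.33 to 9.42) in the window. Of all peaks 4.35% and 3.22% were that wide, which these intervals include. The authors' score, a value per peak from the peak caller, ties at 3100 for many strong peaks. It reached 3100 in 14 of 62 control peaks (22.6%, exact 95% interval 12.9 to 35.0), where 41.3% of all control peaks reached it, and in 10 of 74 knockout peaks (13.5%, 6.68 to 23.5), where 33.4% of all knockout peaks did. On the rest of chromosome 13 the shares were 38.1% and 31.2%. No peak of the window scored above 3100 (intervals 0 to 5.78% in control and 0 to 4.86% in knockout). Of all peaks 1.06% in control and 1.48% in knockout did, which these intervals include. The median score was 1302 in the control list and 642 in the knockout list, against 1566 and 1203 on the rest of the chromosome. Read depth is unknown, so the 2 lists' scores are not on a common footing.

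The widest region marked in both lists lay in the right run at 23621731 to 23627761. The control list covered 5806 bp there in 2 peaks and the knockout list 5475 bp in 1 peak. Next by mean covered length came the region at 23852230 to 23856303 (3659 bp in 2 control peaks, 4069 bp in 1 knockout peak). It was followed by the region at 21806832 to 21810667 in the left run (3687 and 3836 bp), the region with 2 peaks in each list at 23527063 to 23530894 (3638 and 3804 bp), and the region at 23521758 to 23525536 (3397 and 3779 bp). The knockout list covered more in 4 of these 5, and in 23 of all 56 regions marked in both lists (41.1%, exact 95% interval 28.1 to 55.0), where 26.1% of all such regions and 24.2% on the rest of chromosome 13 were longer in the knockout list. The narrowest shared regions were weak in both lists. They covered 586 and 614 bp at 23778879 to 23779564, 755 and 674 bp at 23652292 to 23653046, 846 and 696 bp at 23580126 to 23580971, 953 and 759 bp at 23487742 to 23488694, and 901 and 966 bp at 22120450 to 22121483. Scores of these 5 ran from 65.4 to 497 in the control list and from 78.9 to 562 in the knockout list.

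The marked regions were largely the same in control and knockout islets. A knockout peak overlapped 59 of 62 control peaks by at least 1 bp (95.2%, exact 95% interval 86.5 to 99.0). The 3 control-only peaks (4.84%) compare with 12.7% of all control peaks that had no knockout peak, and with 12.1% on the rest of chromosome 13. A control peak overlapped 64 of 74 knockout peaks (86.5%, 76.5 to 93.3). The 10 knockout-only peaks (13.5%) compare with 8.71% of all knockout peaks and 9.09% on the rest of the chromosome. In the window the knockout list therefore had more one-list peaks than the control list, and over the whole lists it had fewer. The intervals of the window's one-list shares, 1.01 to 13.5% and 6.68 to 23.5%, include the chromosome's values, so the window's shares were not distinguishable from them at this number of peaks. All intervals treat peaks as independent and cover neither animals nor libraries.

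One-list peaks were narrow and low in score. The 3 control-only peaks were 549 bp at 21923216 to 21923764 (score 77.9), 1073 bp at 22050489 to 22051561 (score 108.6) and the lone peak between the runs. None lay in the right run, where all 36 control peaks met a knockout peak. The strongest knockout-only peak was 1203 bp wide with a score of 276, at 21973680 to 21974882, with no control peak closer than 25.5 kb. The other 9 scored between 71.4 and 121. In the left run they lay at 21903938 to 21904443 (506 bp), 22087127 to 22087799 (673 bp) and 22107086 to 22107690 (605 bp). In the right run they lay at 23361867 to 23362413 (547 bp), 23404793 to 23405728 (936 bp), 23493384 to 23494245 (862 bp), 23503711 to 23504612 (902 bp), 23613191 to 23613881 (691 bp) and 23665882 to 23666306 (425 bp). The last lay 644 bp from a control peak and 277 bp from the next knockout peak. Together the knockout-only peaks covered 7350 bp and the control-only peaks 2463 bp.

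Split regions added to the larger number of knockout peaks. When touching peaks of both lists were joined, 56 regions were marked in both, of which 5 held more knockout than control peaks (8.93%, where 2.73% of all such regions did) and 2 held fewer (3.57%, where 0.575% did). Of the control peaks 6 met 2 or more knockout peaks (9.68%, against 2.58% of all control peaks), and 3 knockout peaks met 2 or more control peaks (4.05%, against 0.728%). The first of these shares has an interval of 2.96 to 19.6%, which includes the 3.06% of the rest of chromosome 13. The second rests on 2 regions, with an interval of 0.435 to 12.3% that includes the chromosome's 0.798%. For control peaks with 2 or more partners the interval, 3.63 to 19.9%, lies above the share on the rest of the chromosome. For knockout peaks the interval is 0.844 to 11.4%, which includes 1.17%. Both counts include 1 peak of the region at 23527063 to 23530894, where each list had 2 peaks, so they do not count splits alone. No interval was computed without that region. The control share therefore does not show that splits were more frequent in the window than elsewhere on the chromosome. The clearest split lay at 23634374 to 23637054. There a 2542 bp control peak (score 1255) faced 4 knockout peaks with scores of 85.7, 176, 514 and 69.6, which covered 2355 bp and were 32 to 144 bp apart. A single control peak faced 2 knockout peaks at 21812888 to 21814446 (1552 against 1444 bp), at 21874134 to 21876180 (2047 against 1986 bp), at 22133842 to 22136327 (2376 against 2130 bp) and at 23774937 to 23778701 (3733 against 3424 bp). The gaps between these knockout peaks were 16, 55, 57 and 120 bp. In the other direction, 2 control peaks separated by 225 bp at 23621731 to 23627761 and by 357 bp at 23852230 to 23856303 were each called as 1 knockout peak. Of the 7 regions with unequal peak numbers, only the last gained length in the knockout list, and the other 6 lost some.

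Paired peaks of the histone window were about as wide in knockout as in control islets. One-to-one overlaps gave 48 pairs, whose median width was 1852 bp in the control list and 1754 bp in the knockout list. On the log2 scale the ratio of knockout to control width had a median of -0.02 (95% interval -0.12 to 0.06, SD over pairs 0.25), so that the median pair had 98.7% of its control width. The 720 pairs on the rest of chromosome 13 had a median of -0.12 (-0.15 to -0.11, SD 0.31), or 91.8%, and all 18299 pairs -0.11. The difference between the window and the rest of the chromosome was 0.10 on the log2 scale. The window's interval does not reach the chromosome's median of -0.12 by 0.0029, and it includes the median of all pairs. The knockout peak was narrower in 27 of 48 pairs (56.3%, 41.2 to 70.5) where 73.8% of all pairs and 75.4% of those on the rest of the chromosome were narrower, and wider in 21 (43.8%) where 26.0% of all were wider. The median inward shift was 25 bp for left borders (interval -36 to 80) and 8 bp for right borders (-34 to 66), against 66.5 and 72.5 bp on the rest of chromosome 13, and the left interval includes the chromosome's value while the right does not. Shifts went both ways. Without regard to direction, the medians were 114.5 and 95.5 bp, against 118.5 and 110.0 bp elsewhere on the chromosome.

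**Figure D3:**
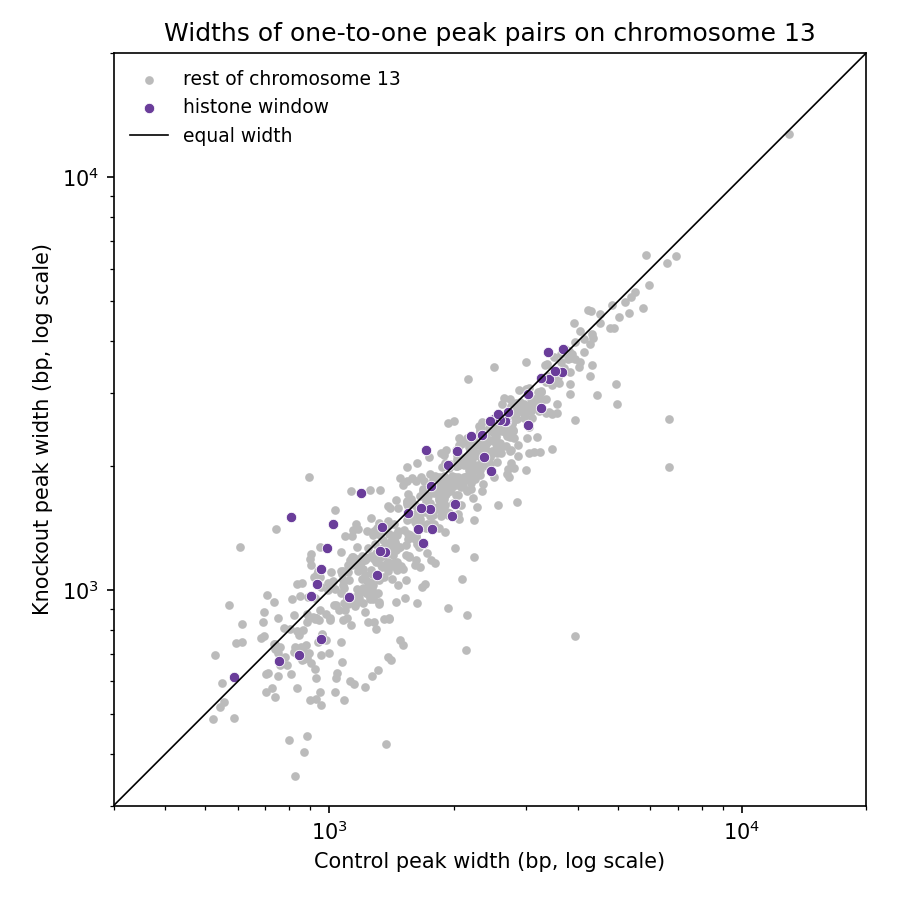
Knockout against control peak width (bp, both axes log scale) for the 48 pairs of the histone window (purple) and the 720 pairs of the rest of chromosome 13 (grey); the line marks equal width. Purple points lie on both sides of the line, 27 below and 21 above, and grey points mostly below it.

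The balance came from changes in both directions. A change in width of 1.25-fold or more was found in 6 pairs as narrowing (12.5%, where 18.1% of all pairs did so) and in 5 pairs as widening (10.4%, interval 3.47 to 22.7, where 3.27% of all did). On the rest of chromosome 13 these shares were 19.3% and 3.33%. The widening pairs were all weak in the control list, with scores from 127 to 418, and each had a higher score in the knockout list. The largest change was at 23667056 to 23667861, a control peak of 806 bp and a knockout peak of 1506 bp, a log2 ratio of 0.90. A control peak of 1196 bp at 23377418 to 23378613, the first of the control list in the right run, faced a knockout peak of 1718 bp (0.52). The other 3 were at 22073024 to 22074042 (1019 and 1444 bp, 0.50), at 22010464 to 22011448 (985 and 1265 bp, 0.36) and at 22126624 to 22128342 (1719 and 2184 bp, 0.35).

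The 5 pairs that narrowed most included stronger peaks. The lowest ratio, -0.39, was at 23789107 to 23791090, where a control peak of 1984 bp faced a knockout peak of 1509 bp and nearly all of the difference, 454 bp, lay at the right border. A peak at 21878225 to 21879911 went from 1687 to 1296 bp (-0.38), and the right border moved in by 381 bp. At 23673178 to 23675637 the widths were 2460 and 1945 bp (-0.34) at nearly equal scores of 2132 and 2134. At 23653690 to 23655458 they were 1769 and 1401 bp (-0.34), with 353 bp lost at the left border. At 23487742 to 23488694 they were 953 and 759 bp (-0.33).

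**Figure D4:**
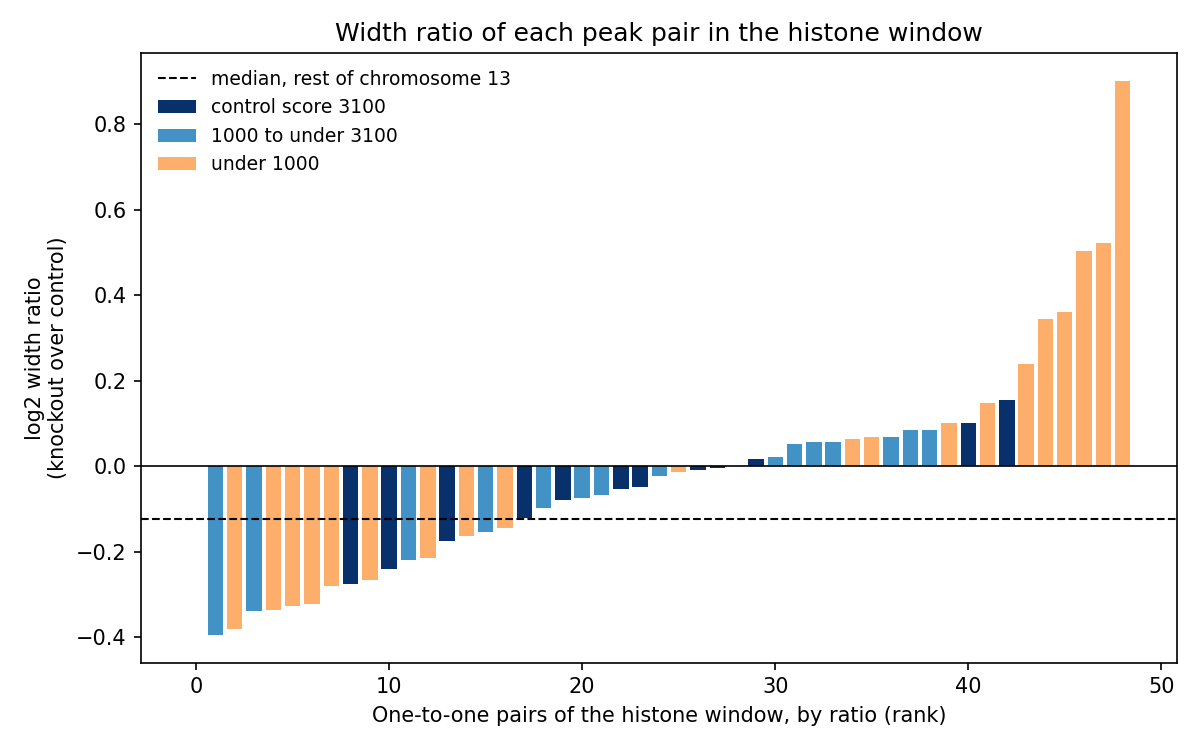
log2 width ratio of knockout over control (vertical axis) for each of the 48 pairs of the histone window, ordered by ratio (horizontal axis, rank) and coloured by control score. Bars run from -0.39 to 0.90, the 5 highest all have control scores under 1000, and the dashed line marks the median of the rest of chromosome 13, -0.12.

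Pairs were also described by the strength of the control peak. The 12 pairs with a control score of 3100 had a median log2 ratio of -0.05 (interval -0.17 to 0.02). On the rest of chromosome 13 the 314 pairs of that class had a median of -0.11 (-0.13 to -0.09). The knockout peak was narrower in 9 of these 12 window pairs (75.0%), near the 80.3% of the class elsewhere on the chromosome. The 16 pairs with a control score of 1000 to under 3100 had a median of -0.01 (interval -0.15 to 0.06), against -0.15 over 147 pairs, and 8 were narrower (50.0%, against 74.1%). The 20 pairs under 1000 had a median of 0.03 (interval -0.27 to 0.24), against -0.17 over 259 pairs, and 10 were narrower (50.0%, against 70.3%). The window's median was nearer to 0 than the chromosome's in each class, but each of these intervals included the chromosome's median, so within no class was a difference distinguishable. Among the 8 pairs with a score of 3100 in both lists it was -0.03 (-0.17 to 0.15), which also includes the chromosome's value, -0.10. By place, the left run had a median of 0.06 (-0.15 to 0.08, 20 pairs) and the right run -0.06 (-0.17 to 0.02, 28 pairs), and the intervals overlapped.

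Scores of paired peaks were as often higher as lower in the knockout list. In the window 20 of 48 pairs had a higher score in knockout (41.7%, interval 27.6 to 56.8, where 17.0% of all pairs had), 20 a lower one (where 47.9% had) and 8 an equal one, at the tie of 3100. On the rest of chromosome 13 the score was higher in 18.9% of pairs, lower in 47.8% and equal in 33.3%. Since fewer peaks of the window were at the tie, the classes below it compare more directly. Since read depth is unknown, these counts are set only against the same counts elsewhere and not read as more or less mark. Under a control score of 1000, the knockout score was higher in 14 of 20 pairs (70.0%, 45.7 to 88.1), against 39.4% of 259 pairs on the rest of the chromosome. From 1000 to under 3100 it was higher in 6 of 16 (37.5%, 15.2 to 64.6), against 15.6% of 147, which that interval includes. At 3100 or more it was higher in 0 of 12 (interval 0 to 26.5%), against 3.50% of 314. No peak of the window scored above 3100 in either list. No pair of this class could therefore be higher, and this 0 adds no comparison.

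The covered length of the window was 123.5 kb in control and 126.0 kb in knockout islets, or 102.0% of control, where the knockout list covered 89.0% of the control length on the rest of chromosome 13 and 90.1% over all peaks. Paired peaks alone gave 98.2% (95714 against 93973 bp) and regions with several peaks 97.4% (25353 against 24687 bp). The total exceeded 100% through the knockout-only peaks. Marked in both lists were 111891 bp, or 90.6% of the control and 88.8% of the knockout length. On the rest of chromosome 13 these shares were 82.2% and 92.4%. Among the 435 tiles of equal length with 20 or more control peaks, the window ranked 6th by this length ratio (median over tiles 89.4%, range 67.5 to 108.0%) and 9th by the ratio of peak numbers, 1.19 (median 0.96). By the median width ratio of pairs it ranked 6th of 329 tiles with 20 or more pairs (median over tiles -0.11). Beside the window on chromosome 13, the tile to its left (25 control and 26 knockout peaks) had a length ratio of 102.2%. The tile to its right (20 control and 16 knockout peaks) had 79.0%.

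**Figure D5:**
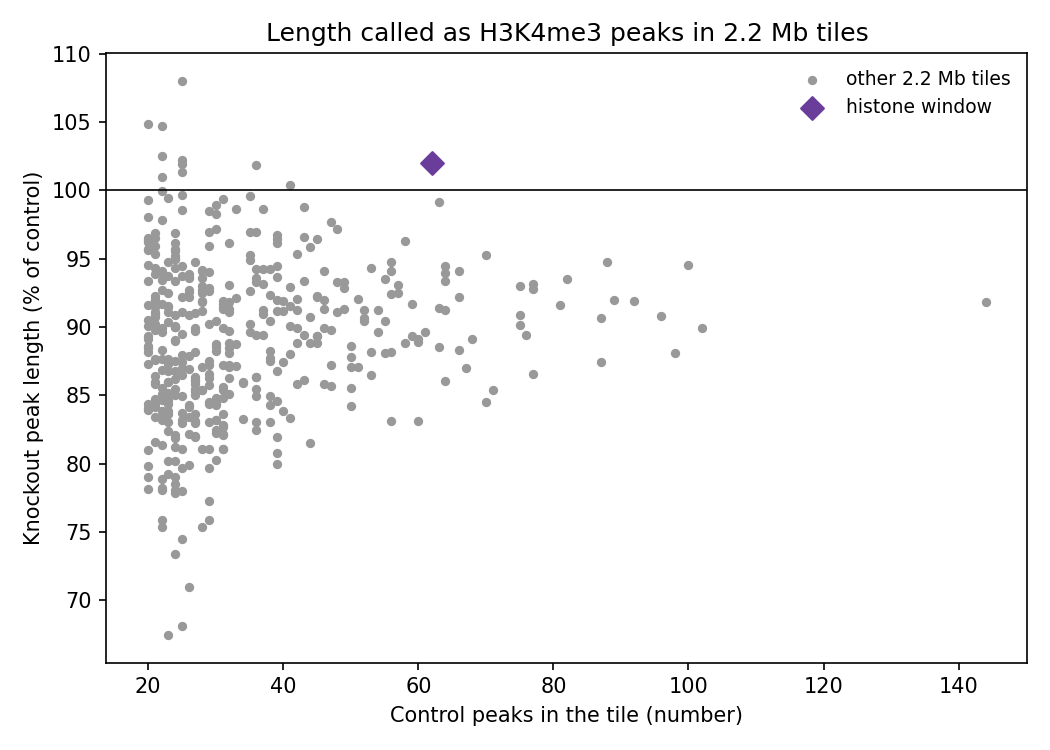
Knockout peak length as a percentage of control peak length (vertical axis) against the number of control peaks (horizontal axis) in the 435 tiles of 2.2 Mb with 20 or more control peaks; grey points are other tiles, the purple diamond is the histone window. The window lies at 102.0% with 62 control peaks, above the median of 89.4%.

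With 1 library per genotype these are differences between libraries, and variation between animals was not measured. Many histone genes are near-identical in sequence, and the sources used here do not say whether reads that map to several places were kept. The part of such reads in these values was not tested.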

How the data were processed

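H3K4me3 peak lists of control and Men1 knockout islets at 2 months were used (1 library each). Per the submitters' processing notes, Bowtie and MACS 1.4.2 were used with build mm9. The sources used here do not state the control input, filters, read mapping rules or pooling. The deposited lists hold a position and a score per peak and no read counts, so depth is unknown. The score is the authors' value, and its scale is not stated in the files. Lists were matched to samples by genotype, age and mark in their names, and 0 per-sample columns were left unused.

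Peaks were kept as deposited and positions counted from 1. Peaks overlapping by at least 1 bp were called shared, and pairs were one-to-one. Medians carry 95% order-statistic intervals and shares exact (Clopper-Pearson) 95% intervals. Tiles took peaks by their midpoint. On chromosome 13 they were laid outwards from the window, and elsewhere from the first base. No p-value was computed. Peaks named are all one-list peaks, all regions with unequal peak numbers, the 5 pairs at each end by width ratio, the 5 widest and 5 narrowest shared regions and those beside the longest gap. The window, rules and lists were chosen with earlier results of these data known. Python 3.11.15, numpy 2.4.6 and scipy 1.17.1 were used. On simulated data made from the 21905 control peaks, 200 of 200 removed peaks and 50 of 50 split peaks were recovered, and a median log2 ratio of -0.2 was returned. The simulated widths changed evenly around each peak's centre, so this checked the functions only and not how peaks were called. Alternatives were other overlap rules, score thresholds, merging within 1 kb, other run lengths and other reference sets.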

Additional observations from a re-analysis of the deposited data

How the results depend on the processing

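Of 42 recomputed values 31 stayed close to those reported and 11 did not. Only the median log2 width ratio and its difference from the rest of chromosome 13 could change sign. Of their alternatives 0 did. A share or median counted as close inside its 95% interval, and a count within 1.5 times. Keeping peaks at or above the median score of each list left 24 control and 27 knockout peaks, and all of those control peaks (100%) overlapped such a knockout peak. A reciprocal overlap of 50% gave 75.7% of knockout peaks as shared. Runs of control peaks numbered 6 with gaps of up to 50 kb. In place of a score of 3100, a score of at least 1000 held 56.5% of control and 44.6% of knockout peaks, and a score above the list's median 38.7% and 36.5%. These moves follow from a looser or stricter rule. The window ranked 17th by knockout peak number and, in an alternative added after seeing the data, 20th by knockout covered length. The median log2 width ratio ran from -0.05 (joined regions) to -0.02, and the difference from the rest of chromosome 13 from 0.07 to 0.10. Among pairs with no other peak within 1 kb, also added after seeing the data, they were -0.02 and 0.10. No paired analysis was possible because there is only 1 library of each genotype, so none could be left out either.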

Other observations

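Densely marked tiles were looked at after the window's values were seen, and the limit of 50 control peaks was set then. Of the 69 tiles of 2.2 Mb with 50 or more control peaks, the window had the highest ratio of knockout to control covered length, 102.0%, against 99.2% for the next tile and a median of 90.7%. It also had the highest ratio of peak numbers among them, 1.19, against 1.10 for the next and a median of 0.97. Of these tiles 33 held fewer control peaks than the window's 62. With peaks within 1 kb merged, the window held 54 control and 62 knockout peaks. A score of at least 100 left 58 and 66. Tile ratios were not recomputed under either rule. A tile just below the limit, with 45 control and 57 knockout peaks, had a higher ratio of peak numbers, 1.27, at 96.4% of the control length. These ranks were not tested against chance, and they describe this pair of libraries only.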
